A study of Mus musculus with 6 samples.

Results

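The neutrophil-attracting CXC chemokine genes are Cxcl1, Cxcl2, Cxcl3, Cxcl5, Ppbp, Pf4 and Cxcl15. They were taken by their names from the table of all genes, in which all 7 were found among 22162 genes. They were measured in mouse skin fibroblasts (MSFs) grown from enzymatically digested dorsal skin. The study's methods describe the MSFs as a line from the skin of 1 female FASST mouse. FASST mice are on the FVB/N strain and carry 2 engineered alleles, a Cre-ERT2 recombinase driven by the Col1a2 promoter and a ROSA26 lox-stop-lox p27Kip1 IRES GFP cassette. Poly(A) RNA was sequenced from 3 samples given 10 µM tamoxifen (TAM) for 48 h, which the labels call senescent, and from 3 samples given the ethanol vehicle (EtOH), which the labels call non-senescent.

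Both groups came from cells with the same alleles and were cultured at 3% oxygen, so what differs between them is TAM together with the recombination it triggers. The effect of TAM itself and that of the p27Kip1 allele cannot be told apart, since no sample had one without the other. With a line from a single animal and no label that separates the cultures, the p-values measure the spread between these samples, which may be technical. The age of the mice is not in the labels.

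CXC chemokines are small secreted proteins that guide white blood cells along a gradient. Those with a glutamate-leucine-arginine motif before the first cysteines bind Cxcr2 on neutrophils and draw them out of the blood into tissue, and fibroblasts are known to make several of them when exposed to IL-1, TNF or IL-17. Their transcription is known to be driven by NF-κB, with C/EBP and AP-1 factors, and their messenger RNAs are known to be short-lived. Pf4, the platelet factor 4 gene, lies among them on the chromosome, but its protein lacks that motif and is known from platelet granules.

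All 7 genes lie on the forward strand of chromosome 5 within 146.6 kb (mm9, chr5:91188325-91334935). In order they are Cxcl5 (ENSMUSG00000029371, 91188325 to 91190651), Ppbp (ENSMUSG00000029372, 91197544 to 91199086), Pf4 (ENSMUSG00000029373, 91201461 to 91202407), Cxcl3 (ENSMUSG00000029379, 91215129 to 91217112), Cxcl15 (ENSMUSG00000029375, 91223560 to 91232093), Cxcl1 (ENSMUSG00000029380, 91320267 to 91322141) and Cxcl2 (ENSMUSG00000058427, 91332897 to 91334935). Cxcl15 and Cxcl1 are 88.2 kb apart. The genes have 3 or 4 exons each, and no exon of theirs overlaps another gene of the annotation. In a comparison of transcripts, Cxcl2 and Cxcl3 were 90.1% identical over 354 bases, and a stretch of 116 bases in each had a match of at least 95% identity elsewhere in the genome. Cxcl15 had such a match over 177 bases, and reads from these stretches could be split between copies. Transcripts of Cxcl1, Cxcl5, Ppbp and Pf4 had no such match.

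The start regions of these genes are shown because the members differ in the letters they hold just upstream. RefSeq promoters (table of build GRCm38.p6) were matched for 6 of the 7 genes, all but Cxcl5. The 250 bases before the RefSeq start of 4 of them are printed 5′ to 3′, with matches to the searched motifs in capitals. In Cxcl1, Cxcl2 and Cxcl3 the capitals starting with GG mark a κB-like motif, the kind of site that NF-κB binds. In Cxcl3 and Ppbp TATAAA marks a TATA box, and in Ppbp TGAATCA marks an AP-1-like motif.
Cxcl1 (mm9, chr5:91320021-91320270, forward strand): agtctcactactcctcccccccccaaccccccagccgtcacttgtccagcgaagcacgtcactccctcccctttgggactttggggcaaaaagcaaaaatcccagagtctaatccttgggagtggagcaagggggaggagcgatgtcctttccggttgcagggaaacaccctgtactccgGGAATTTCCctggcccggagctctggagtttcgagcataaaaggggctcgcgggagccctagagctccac
Cxcl2 (mm9, chr5:91332675-91332924, forward strand): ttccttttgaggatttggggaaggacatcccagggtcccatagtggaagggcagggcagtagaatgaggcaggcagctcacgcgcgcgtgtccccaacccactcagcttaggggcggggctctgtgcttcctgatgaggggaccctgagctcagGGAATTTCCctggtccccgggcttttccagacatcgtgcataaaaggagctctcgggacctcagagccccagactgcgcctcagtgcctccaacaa
Cxcl3 (mm9, chr5:91214877-91215126, forward strand): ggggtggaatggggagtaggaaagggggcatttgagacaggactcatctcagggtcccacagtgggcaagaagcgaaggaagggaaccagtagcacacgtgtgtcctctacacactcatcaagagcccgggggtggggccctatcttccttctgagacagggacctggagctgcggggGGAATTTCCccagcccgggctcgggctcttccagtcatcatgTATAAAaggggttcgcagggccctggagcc
Ppbp (mm9, chr5:91197294-91197543, forward strand): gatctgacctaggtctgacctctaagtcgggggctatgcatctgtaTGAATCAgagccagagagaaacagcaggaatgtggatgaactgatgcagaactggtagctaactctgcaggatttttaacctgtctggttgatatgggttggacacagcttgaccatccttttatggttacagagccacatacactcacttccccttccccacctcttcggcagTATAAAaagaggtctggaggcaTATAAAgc

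The κB-like motif was searched as GGANTTTCC, the C/EBP-like motif as TTGCNNAA, the AP-1-like motif as TGANTCA and the TATA box as TATAAA, each on both strands. Cxcl1, Cxcl2 and Cxcl3 held the same κB-like letters, GGAATTTCC, whose first base lay 70, 96 and 72 bases before the RefSeq start, respectively. The windows of Cxcl1 and Cxcl2 ended at 91320270 and 91332924, past the starts of these genes in the mm9 annotation, 91320267 and 91332897. Of all 32851 RefSeq promoters of the same length, 1.07% held the κB-like motif. The windows of Ppbp, Pf4 and Cxcl15 did not hold these letters. Ppbp held the TATA box at 30 and at 8 bases before the start and the AP-1-like motif at 204 bases. Cxcl3 and Cxcl15 held the TATA box at 30 and 27 bases, and Pf4 held a C/EBP-like match at 212 bases. Among all promoters the shares were 12.4% for the TATA box, 6.75% for the AP-1-like motif and 9.56% for the C/EBP-like motif. The motifs did not overlap one another in these windows, and a match of letters is a description and not evidence of binding.

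Values are the authors' normalized counts, on a scale where 16.2 stand for 1 c.p.m., the usual unit that scales libraries to a common total. They summed to between 14952367 and 17314953 per library, and the smallest values above 0 were between 0.36 and 0.89, so that values of a few normalized counts rest on very few reads. All 8 fibroblast markers were measured above the filter, with sums of 1459670 to 1643250 in EtOH and 619948 to 1082830 in TAM. Cdkn1b, the endogenous gene of p27Kip1, stood at 1427, 3074 and 1853 in EtOH replicates 1, 2 and 3 and at 1699, 1519.8 and 1629.97 in TAM (log2 fold change −0.32 ± 0.28 SE, limma adjusted p = 0.677). This gene does not check the labels, because where reads of the transgene were counted is not given in the sources used here. EtOH replicate 2 stood apart from the other EtOH libraries in genes of the pathway, with a sum of 17648 over 17 transcription factor genes against at most 7206 in the other EtOH libraries, and values of the members and pathway genes that rest on it are also given without it. Those fits kept TAM replicate 2 and so broke the same-numbered pair. Where both libraries of replicate 2 were high, as for Ppbp, Ereg and Fosl1, leaving out only the EtOH library widens the difference.

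Cxcl5, Cxcl1 and Ppbp were higher in TAM than in EtOH in every same-numbered pair of samples, by log2 differences of 2.45 to 4.90. These 3 members were tested because each exceeded 1 c.p.m. in 3 or more libraries. In bulk RNA of skin cultures, fewer cells of a type and less RNA per cell cannot be told apart. In the fit without a replicate block 0 of these 3 were called at an adjusted p under 0.05 by limma, against 0.168% of 11877 tested genes called higher and 0.0758% called lower. With the replicate number as a block all 3 were called and rose, against 1.00% of tested genes called higher and 0.615% lower. The remaining 4 genes, Cxcl2, Cxcl3, Pf4 and Cxcl15, stayed below 1 c.p.m. in all 6 libraries. The plot of the 7 genes by library shows these levels.

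**Figure D1:**
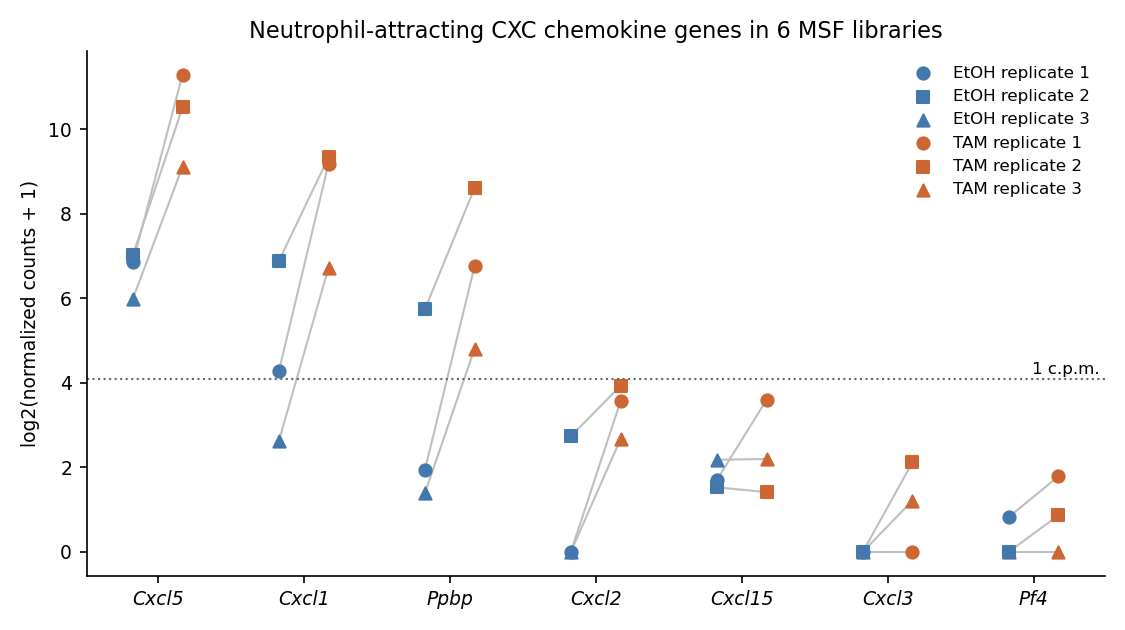
The y axis is log2(normalized counts + 1) for each of the 7 genes (x axis), with EtOH in blue and TAM in orange, 1 marker shape per replicate number and grey lines joining same-numbered samples. The 3 genes on the left lie above the dotted line of 1 c.p.m. in all TAM libraries, and the 4 on the right lie under it everywhere.

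Cxcl5 encodes a neutrophil attractant also known as LIX, which is named for its induction by lipopolysaccharide. It was at 115, 129.7 and 62.7 normalized counts in EtOH replicates 1, 2 and 3 and at 2508, 1466 and 554 in TAM. Every TAM library was above every EtOH library, and the lowest TAM value was that of replicate 3, which was also the lowest in EtOH. The means were 102 ± 35.1 and 1509 ± 977 (SD, n = 3 in each), a ratio of 14.7. The log2 fold change was 3.68 ± 0.56 (SE) with a limma adjusted p of 0.0628 without the block. With the block the SE was 0.29 and the limma adjusted p was 0.0184. Cxcl5 was the member nearest to the threshold without the block, and it passed it without TAM replicate 3, at 4.28 with a limma adjusted p of 0.0263. It did not pass with any other library left out. Leaving out EtOH replicates 1, 2 and 3 in turn gave limma adjusted p-values of 0.129, 0.117 and 0.234. Leaving out TAM replicate 1 gave 0.220 and TAM replicate 2 gave 0.167.

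Cxcl1 encodes a neutrophil attractant also known as KC, a ligand of Cxcr2. It was at 18.5, 117 and 5.17 normalized counts in EtOH and at 582, 646 and 105 in TAM. The groups overlapped, since EtOH replicate 2 was above TAM replicate 3, while each TAM sample was above the EtOH sample of its own number. The means were 47.0 ± 61.2 and 444 ± 296 (SD, n = 3 in each), a ratio of 9.46. The log2 fold change was 3.82 ± 1.14 (SE) with a limma adjusted p of 0.240 without the block. Blocking by replicate number brought the SE to 0.50 and the limma adjusted p to 0.0420. The 3 pairs differed by 4.90, 2.45 and 4.10. Without EtOH replicate 2 the log2 fold change was 4.96 (limma adjusted p = 0.144, no block), and without EtOH replicate 3 it was 2.83 (limma adjusted p = 0.560). Without TAM replicate 3 it was 4.66 (limma adjusted p = 0.253).

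Ppbp encodes pro-platelet basic protein, which is known from platelet granules and whose trimmed form attracts neutrophils. It was at 2.83, 52.4 and 1.62 normalized counts in EtOH and at 107, 389.6 and 26.9 in TAM. Replicate 2 was the highest of each group, and its EtOH value was above the TAM value of replicate 3. The means were 18.9 ± 29.0 and 175 ± 191 (SD, n = 3 in each), a ratio of 9.21. The log2 fold change was 3.70 ± 1.35 (SE) with a limma adjusted p of 0.303 without the block. Blocking by replicate number brought the SE to 0.48 and the limma adjusted p to 0.0416. The pairs differed by 4.82, 2.87 and 3.41, in the same order of pairs as for Cxcl1. Leaving out EtOH replicate 2 gave 5.06 (limma adjusted p = 0.176, no block), EtOH replicate 3 gave 2.89 (0.655), TAM replicate 2 gave 2.76 (0.460) and TAM replicate 3 gave 4.66 (0.316). Without replicate 2 of both groups Ppbp did not reach the filter and was not tested.

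**Figure D2:**
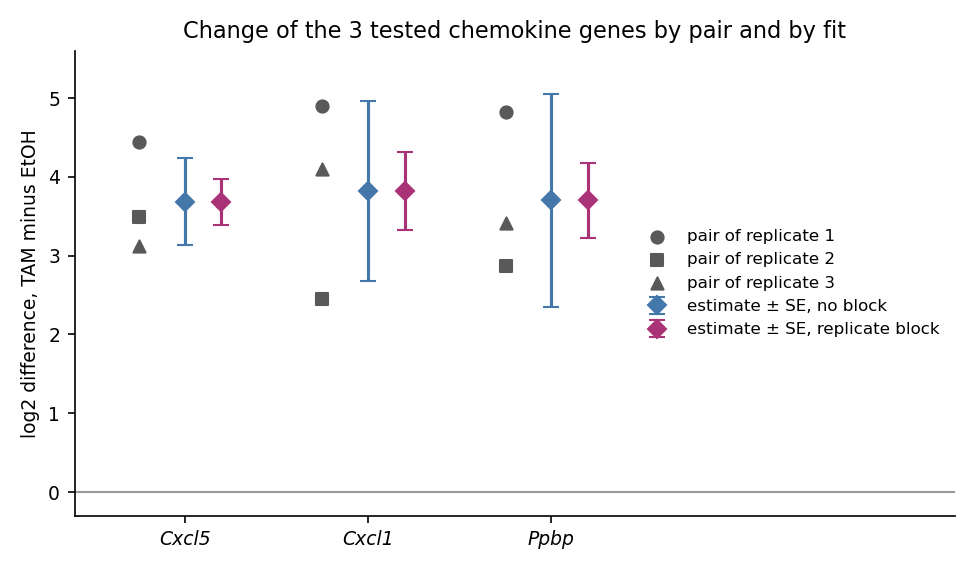
The y axis is the log2 difference of TAM minus EtOH for the 3 tested genes (x axis). Grey markers are the 3 same-numbered pairs, and diamonds with bars are the estimate and its SE without (blue) and with (purple) the replicate block. The estimates of 3.68 to 3.82 are the same in both fits, and the bars of Cxcl1 and Ppbp shorten from 1.14 and 1.35 to 0.50 and 0.48 with the block.

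The background of these counts was as follows. At an unadjusted limma p under 0.05 all 3 tested members were higher in TAM, against 6.67% of all tested genes without the block and 8.64% with it. A gene whose 3 TAM values all lay above its 3 EtOH values made up 9.19% of tested genes, and 1 of the 3 members, Cxcl5, was of this kind. A gene higher in TAM in all 3 pairs made up 18.3% of tested genes, and all 3 were of this kind. The 3 members had a median log2 fold change of 3.70, and all tested genes had one of −0.03. These counts describe the members that passed the filter and not all 7, because Ppbp reached 1 c.p.m. in only 1 EtOH library and Cxcl1 in only 2, so both passed through their TAM values. For a single gene, the smallest two-sided p that an exact permutation of 3 against 3 samples can give is 0.1.

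Cxcl2, also known as MIP-2, is another Cxcr2 ligand and the gene next to Cxcl1. It was listed at 0, 5.66 and 0 normalized counts in EtOH and was at 10.8, 14.2 and 5.36 in TAM. It was higher in TAM in all 3 pairs, by 3.56, 1.19 and 2.67, and the groups overlapped because EtOH replicate 2 was above TAM replicate 3. Without EtOH replicate 2 the groups did not overlap. In a fit without the filter its log2 fold change was 2.47 ± 0.80 (SE) with a limma adjusted p of 0.261, and 0.125 with the block. That fit gave 3.39 ± 0.53 (SE) without EtOH replicate 2 (limma adjusted p = 0.0976). A fold in linear terms is not given, since EtOH replicates 1 and 3 are at 0.

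Cxcl3, a close relative of Cxcl2, was listed at 0 in every EtOH library and at 0, 3.34 and 1.32 normalized counts in TAM. Its start region held the same κB-like letters as that of Cxcl1, and its level stayed near 0 in these cells. Pf4 was at 0.77, 0 and 0 in EtOH and at 2.45, 0.82 and 0 in TAM. Cxcl15, known as lungkine from lung epithelium, was at 2.25, 1.88 and 3.53 in EtOH and at 11.1, 1.66 and 3.58 in TAM. Without the filter the limma adjusted p was 0.444 for Cxcl3, 0.691 for Pf4 and 0.742 for Cxcl15, and 0.354, 0.521 and 0.666 with the block. The values above 0 in these 3 genes were few and spread widely within TAM, and a p over the threshold does not show that the groups were alike. Between Ppbp and Pf4, both known from platelets and side by side on the chromosome, the level per kb of Ppbp was 99.1, 361 and 24.9 in TAM and that of Pf4 was 4.18, 1.40 and 0.

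Levels between genes were compared per kb of exon. Cxcl5 was at 61.8 ± 21.2 normalized counts per kb in EtOH and 912 ± 591 in TAM (SD, n = 3 in each). Cxcl1 was at 49.3 ± 64.3 and 466 ± 310, and Ppbp at 17.5 ± 26.8 and 162 ± 176 on the same scale. The order of the means was Cxcl5, Cxcl1 and Ppbp in both groups, but the ranges over libraries of each gene and the next overlapped. Within a library the level per kb of Cxcl1 was above that of Ppbp in all 6 libraries, and that of Cxcl5 was above that of Cxcl1 in 5 of 6, all but EtOH replicate 2. In TAM, Cxcl2 at 5.54 ± 2.44, Cxcl15 at 2.56 ± 2.34, Pf4 at 1.86 ± 2.13 and Cxcl3 at 1.54 ± 1.67 normalized counts per kb were all under the lowest Ppbp value of 24.9.

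The mix of the genes within a library is free of scaling between libraries. Cxcl5 made up 74.0%, 30.9% and 81.5% of the family's normalized counts per kb in EtOH and 67.6%, 45.7% and 70.4% in TAM. Replicate 2 had the lowest Cxcl5 share in each group. Its Ppbp share, 19.1% in EtOH and 18.6% in TAM, was the highest of its group, against 2.80% to 5.24% in the other 4 libraries. Cxcl1 made up 20.7%, 48.5% and 11.7% in EtOH and 27.3%, 35.0% and 23.1% in TAM. Per kb, the ratio of Cxcl5 to Cxcl1 ranged from 0.637 to 6.99 in EtOH and from 1.31 to 3.05 in TAM, and that of Cxcl1 to Ppbp from 2.54 to 7.40 and from 1.88 to 6.16. The ranges of the shares and of the ratios overlapped between groups for all 3 genes, while the family's sum per kb was 93.6, 254 and 46.5 in EtOH and 2240.1, 1938 and 476 in TAM. The lowest TAM sum was thus above the highest EtOH sum. Within the family only Cxcl5 had all its TAM values above all its EtOH values, as did 9.19% of tested genes. The groups overlapped for every other member, so the separation of the sum is not one of each gene.

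**Figure D3:**
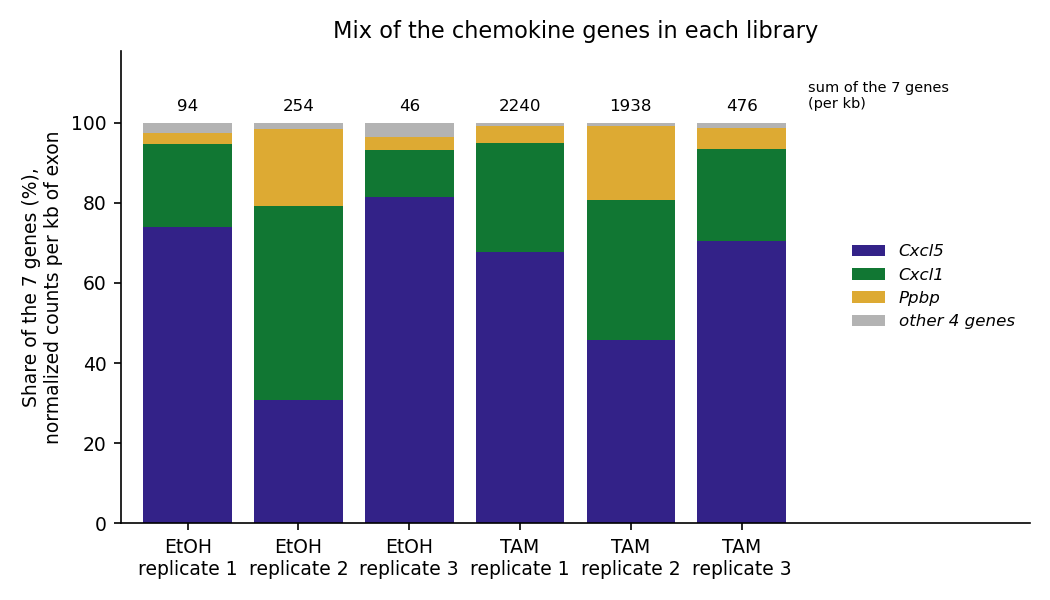
Stacked bars give the share (%) of each gene in the summed normalized counts per kb of exon of the 7 genes, for each of the 6 libraries, with the sum above each bar. Cxcl5 is the largest share in all libraries but EtOH replicate 2, and both bars of replicate 2 hold a Ppbp share of over 18%.

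Across the 6 libraries, log2 values of Cxcl1 and Ppbp had a Pearson r of 0.968, those of Cxcl1 and Cxcl5 0.909 and those of Cxcl5 and Ppbp 0.829. These are descriptions over libraries of 2 groups that both genes share. Among all other tested genes, those most like Cxcl5 were Saa3 (r = 0.997), Prr7 (0.996), Eng (0.995), Il13ra2 (0.992) and Slc9a3r1 (0.989). Those most like Cxcl1 were AK044378 (0.993), Serpina3g (0.991), Efna3 (0.989), Sdc3 (0.988) and Tmc7 (0.988). Those most like Ppbp were Celf1 (0.995), B230312A22Rik (0.992), Loxl4 (0.986), Agpat9 (0.986) and Tnc (0.985). The 3 sets of 5 had no gene in common.

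The table held 19 genes from 500 kb before to 500 kb after the family, and 8 of them were tested. Besides the 3 members, Alb, the serum albumin gene upstream of Cxcl5, rose from 4.38, 5.66 and 3.38 normalized counts in EtOH to 146.8, 147.4 and 45.4 in TAM. Its log2 fold change was 4.22 ± 0.56 (SE), with a limma adjusted p of 0.0485 without the block. The blocked fit gave 0.0274. Alb reached 1 c.p.m. in the TAM libraries only, and without the filter or without EtOH replicate 2 the unblocked call was lost (limma adjusted p = 0.0525 and 0.0871). Between Alb and Cxcl5, Rassf6 had a log2 fold change of 0.76 (limma adjusted p = 0.768, or 0.618 when blocked), and Afp and Afm, paralogues of Alb, were at or near 0 in all libraries. On the outer side of Alb, Ankrd17 had a log2 fold change of 0.29 (limma adjusted p = 0.491). Beyond Cxcl2, Mthfd2l had a log2 fold change of 0.51 (limma adjusted p = 0.386).

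Ereg, which encodes the growth factor epiregulin and lies further on, was at 56.8, 492 and 15.8 in EtOH and at 114, 1022 and 81.7 in TAM. Like Ppbp it was highest in replicate 2 of each group, and its log2 fold change of 1.45 ± 1.38 (SE) had a limma adjusted p of 0.696 without and 0.131 with the block. Without EtOH replicate 2 and with TAM replicate 2 kept, the log2 fold change of Ereg was 2.78 ± 1.18 (limma adjusted p = 0.377, no block). The same-numbered pairs of Ereg differed by 1.00, 1.05 and 2.30. Of the growth factor genes around it, Epgn, Areg and Btc did not reach the filter. Higher values in TAM with a call in the blocked fit were thus found at Alb, at the adjacent genes Cxcl5 and Ppbp, and at Cxcl1. Uncalled or near-silent genes lay between Alb and Cxcl5 and between Ppbp and Cxcl1.

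**Figure D4:**
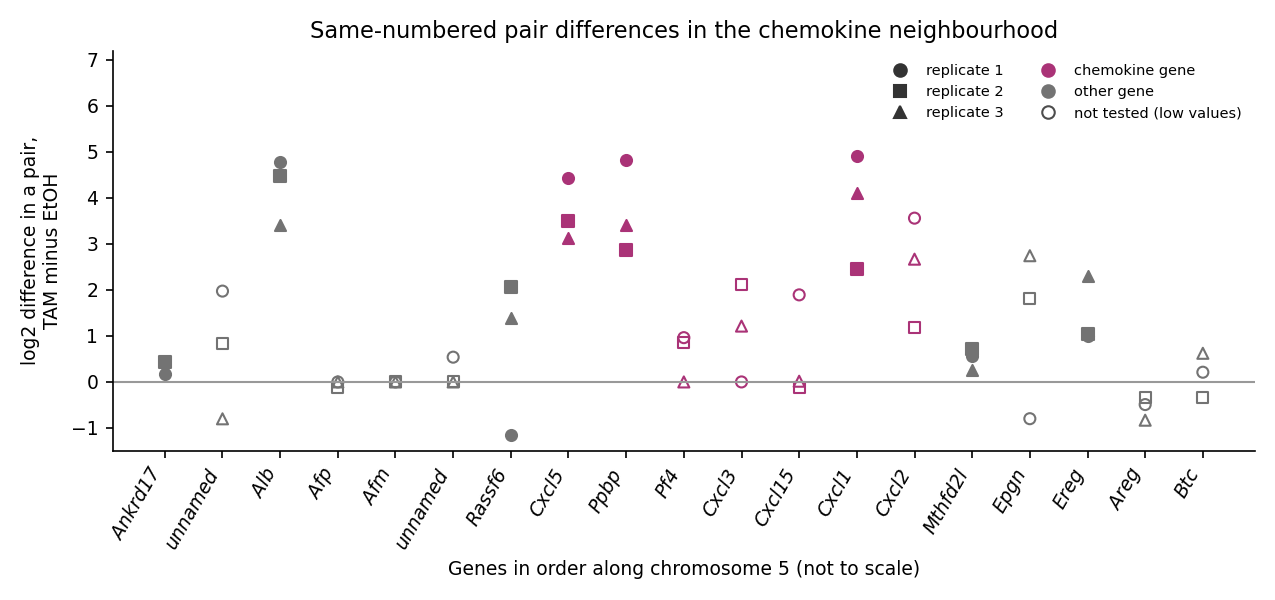
The y axis is the log2 difference of TAM minus EtOH in each same-numbered pair, for 19 genes in their order on chromosome 5 (x axis, not to scale). Chemokine genes are purple, other genes grey, and open markers are genes not tested for low values. Alb, Cxcl5, Ppbp and Cxcl1 lie above 2.4 in all 3 pairs.

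Among receptors, Cxcr2 was the tested gene of 4. It was at 53.8, 97.3 and 61.0 normalized counts in EtOH and at 99.8, 347 and 100.2 in TAM, with a log2 fold change of 1.14 ± 0.53 (SE) and a limma adjusted p of 0.411, or 0.166 with the block. The groups did not overlap, with EtOH replicate 2 just under the lowest TAM value. Cxcr1 and Ackr1 (listed as Darc), the scavenging chemokine receptor, were near 0, and Cxcr3, the receptor of Cxcl9 and Cxcl10, was listed at 0 in all libraries.

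Of 8 other CXC chemokines on the list, 7 were in the table, 3 were tested and 0 were called in limma with or without the block (0 also at an unadjusted p under 0.05). Cxcl16, a membrane-bound scavenger and chemokine, had a log2 fold change of 0.63 (limma adjusted p = 0.565). Cxcl12, the ligand of Cxcr4 that fibroblasts make in steady state, had one of 0.35 (limma adjusted p = 0.772). The median of the 3 was 0.35. Cxcl14, a chemokine of skin that did not reach the filter, was at 14.5, 2.80 and 2.50 normalized counts in EtOH and at 67.6, 94.7 and 15.4 in TAM. All its TAM values lay above its EtOH values, and the fit without the filter gave 3.01 ± 0.85 (SE, limma adjusted p = 0.215).

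Of 11 other factors that act on neutrophils or are made with them, 5 were tested, 1 was called without the block and 2 with it. The shares of all tested genes called higher were 0.168% without the block and 1.00% with it. Lcn2, a secreted binder of bacterial siderophores, rose from 5.94, 8.52 and 2.50 to 110, 112 and 68.8 normalized counts (log2 fold change 3.96 ± 0.50 SE, adjusted p in limma 0.0427, or 0.0237 when blocked). Lcn2 reached 1 c.p.m. in the TAM libraries only, and its unblocked call was lost without the filter (limma adjusted p = 0.0525) and without EtOH replicate 2 (0.0755). Saa3, an acute-phase serum amyloid gene, stood at 38.0, 86.8 and 21.1 in EtOH and at 11472, 5533 and 938 in TAM (log2 fold change 6.53 ± 0.92 SE, limma adjusted p = 0.0588, or 0.0212 when blocked). The TAM libraries were ordered as for Cxcl5, with replicate 1 the highest and replicate 3 the lowest. The median of the 5 was 2.42, and Csf3, the granulocyte growth factor gene, was not tested, with no value above 6.69.

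Of 10 genes whose products trim or hold chemokines, 9 were tested, 0 were called without the block in limma and 3 were called higher with it. The share of all tested genes called higher with the block was 1.00%. At an unadjusted limma p under 0.05 without the block, 4 were higher and 1 was lower. Of all tested genes 6.67% were higher at that p, and 796 of 11877 were lower. Mmp8, the neutrophil collagenase, was at 8.28, 1.85 and 1.62 in EtOH and at 137, 85.4 and 19.8 in TAM (log2 fold change 3.94, limma adjusted p = 0.146, or 0.0429 when blocked). Mmp8 reached 1 c.p.m. in the TAM libraries only and so passed the filter through them. Mmp13, another collagenase, was at 41.1, 80.1 and 0.74 in EtOH and at 1042, 1045 and 186 in TAM (5.02, limma adjusted p = 0.221, or 0.0359 when blocked). Gpc1, a heparan sulfate proteoglycan of the cell surface, was at 1933, 1790.5 and 1025 in EtOH and at 10979, 5693 and 5025 in TAM (2.16, limma adjusted p = 0.0915, or 0.0274 when blocked). In each of these 3 genes all TAM values lay above all EtOH values, against 9.19% of all tested genes. Tnfaip6 went the other way, with all TAM values below all EtOH values (log2 fold change −0.85, limma adjusted p = 0.292, or 0.147 when blocked). The median of the 9 was 0.42.

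The signals upstream of the chemokines, from IL-1, TNF and IL-17 receptors to the IκB kinases, gave 18 tested genes of 21. None of the 18 was called by limma with or without the block, 3 had an unadjusted p under 0.05 without it and 4 with it, all higher, and their median log2 fold change was 0.14. The shares of all tested genes higher at that unadjusted p were 6.67% without the block and 8.64% with it. Tlr2, a receptor for bacterial lipopeptides, had a log2 fold change of 1.18 (limma adjusted p = 0.331), and Ikbkg, the regulatory subunit of the IκB kinase, one of 0.83 (limma adjusted p = 0.257).

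Of 18 transcription factor genes of the NF-κB, C/EBP and AP-1 families, 17 were tested and none was called by limma in either fit, with 1 at an unadjusted p under 0.05 without the block and 2 with it, all higher. The shares of all tested genes higher at that unadjusted p were 6.67% and 8.64%. The median log2 fold change of the 17 was 0.26. Without EtOH replicate 2, with TAM replicate 2 kept, it was 0.70, with none called by limma and 6 at an unadjusted p under 0.05. The share of all tested genes at that p was not computed for this fit. EtOH replicate 2 was set aside because the sum of these same genes was high in it. The shift is therefore not a separate result on these factors. Bcl3, an atypical IκB protein, had the largest log2 fold change, 1.21 (limma adjusted p = 0.476), or 1.97 (0.143) without EtOH replicate 2. Fosl1, an AP-1 subunit, was at 79.4, 912 and 29.1 in EtOH and at 153, 1132 and 104.0 in TAM (1.02, limma adjusted p = 0.794, or 0.220 when blocked). Without EtOH replicate 2 and with TAM replicate 2 kept, the log2 fold change of Fosl1 was 2.42 (limma adjusted p = 0.397). Its same-numbered pairs differed by 0.94, 0.31 and 1.80. Its order within the groups was that of Ppbp, with replicate 2 the highest and replicate 3 the lowest. The summed level of the 17 genes was highest in EtOH replicate 2, the EtOH library with the highest Cxcl1, Cxcl2, Cxcl5 and Ppbp, and the part of this in the chemokine values was not tested.

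Among 9 regulators of the stability of such messenger RNAs, all were tested and 0 were called by limma in either fit, with 1 lower at an unadjusted p under 0.05 without the block, and 1 higher and 1 lower with it. Over all 11877 tested genes, 796 were lower at that p without the block. With the block, 1026 were higher and 988 lower. The largest differences were those of Zfp36l1, a decay factor that binds AU-rich elements, at −0.75 (limma adjusted p = 0.446), and of Hnrnpd, another such binder, at −0.75 (limma adjusted p = 0.299). The median of the 9 was −0.01. The plot of tested genes by role sets these lists beside the chemokine genes.

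**Figure D5:**
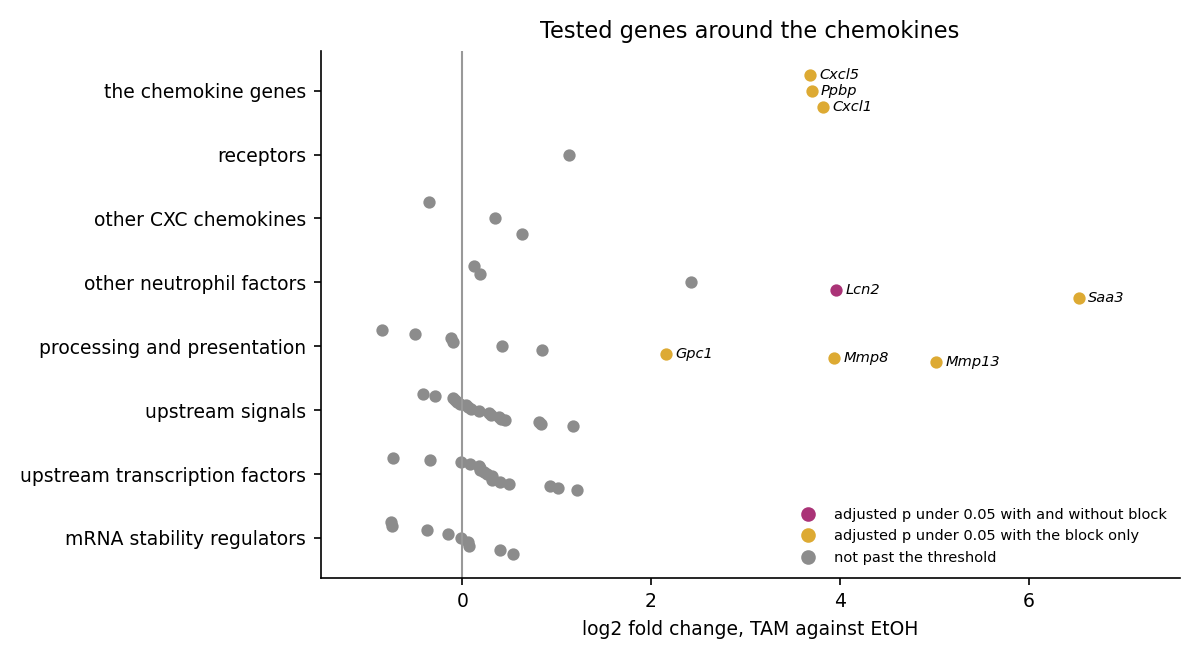
The x axis is the log2 fold change of TAM against EtOH and each point is 1 tested gene, with 1 row per role and points spread vertically for legibility. The 3 chemokine genes sit at 3.68 to 3.82, while the upstream signals, transcription factors and stability regulators lie between −0.75 and 1.21 and hold no called gene.

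Markers of cells known to make or follow these chemokines, and of other skin cells, were also measured. Of 11 neutrophil markers, 10 were in the table, 4 were listed at 0 everywhere (S100a9, Mpo, Ltf and Retnlg) and 8 had no value of 10 or more, with sums of 33.1 to 128 in EtOH and 48.5 to 75.8 in TAM. Both neutrophil markers that were tested encode granule proteins. Camp was at 5.20, 5.67 and 0.75 in EtOH and at 29.2, 31.8 and 21.6 in TAM, with all TAM values above all EtOH values (log2 fold change 2.76 ± 0.68 SE, limma adjusted p = 0.182, and 0.0900 in the blocked fit). Camp reached 1 c.p.m. in the TAM libraries only and so passed the filter through them. Prtn3 had a log2 fold change of −0.92 (limma adjusted p = 0.657). Of 8 platelet and megakaryocyte markers, 5 had no value of 10 or more and Gp6 was listed at 0, with sums of 244 to 482 in EtOH and 161 to 275 in TAM. Itga2b, the integrin αIIb gene, had a log2 fold change of −1.59 (limma adjusted p = 0.262) and Gp1ba one of 0.55 (limma adjusted p = 0.629).

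Of 10 macrophage markers, 6 stayed under 10 everywhere, Adgre1 (listed as Emr1), C1qa and C1qb were listed at 0, and the sums were 177 to 462 in EtOH and 280.4 to 480.0 in TAM. Ptprc, the leukocyte surface gene CD45, had no value above 5.01. Lyz2, a lysozyme gene of myeloid cells, was at 46.8, 35.2 and 62.9 in EtOH and at 103, 143 and 159 in TAM (log2 fold change 1.48 ± 0.32 SE, limma adjusted p = 0.141, and 0.0864 in the blocked fit). Its groups did not overlap, and neither did those of Csf1r (log2 fold change 0.82, limma adjusted p = 0.388), both higher in TAM. Of all tested genes, 9.19% had every TAM value above every EtOH value. Itgam and Mrc1, which were not tested, were also higher without overlap. Itgam had no value above 3.11, and for Mrc1 the highest EtOH value was 2.60 and the lowest TAM value 2.73. Cd68, the other tested macrophage marker, was at 52.1, 352 and 97.4 in EtOH and at 49.55, 90.5 and 115.9 in TAM. The log2 fold change of Cd68 was −0.59 (limma adjusted p = 0.758). Keratinocyte markers summed to 68.7 to 87.0 and 61.1 to 83.8, with 6 of 9 under 10 everywhere and Krt1 listed at 0. Trp63 had a log2 fold change of −2.11 (limma adjusted p = 0.187) and Krt10 one of −0.02 (limma adjusted p = 0.982). Endothelial markers summed to 92.5 to 241 in EtOH and 24.6 to 45.2 in TAM, with 3 of 7 under 10 everywhere. Kdr, the VEGF receptor gene, made up most of that sum in EtOH and fell in the blocked fit (log2 fold change −3.71, limma adjusted p = 0.0608, or 0.0488 when blocked). Vwf, which was not tested, was higher in TAM without overlap, at 0.55, 6.65 and 4.34 in EtOH and at 8.90, 8.36 and 10.1 in TAM. Of the fibroblast markers, Lum and Dcn differed most. Lum was at −2.38 (limma adjusted p = 0.236, or 0.0570 when blocked) and Dcn at −2.37 (limma adjusted p = 0.163, or 0.0811 when blocked). Among the 8, 2 had a positive log2 fold change, Thy1 and Pdgfrb. Thy1 was at 1036, 2165 and 571 in EtOH and at 2366, 4122 and 2246 in TAM, without overlap. Its log2 fold change was 1.36 (limma adjusted p = 0.295, or 0.0797 when blocked), and that of Pdgfrb was 0.09 (limma adjusted p = 0.895). Col1a1, Col1a2, Col3a1, Dcn and Lum went the other way, with all TAM values below all EtOH values. Over all 11877 tested genes, 1359 had every TAM value below every EtOH value. The fibroblast and endothelial sums moved with the groups. Camp, S100a8, Lyz2, Csf1r, Itgam, Mrc1, Krt5 and Vwf were higher in TAM without overlap, and Itga2b, Trp63 and Kdr were lower without overlap. The keratinocyte gene Krt5 was at 0.64, 0 and 0 in EtOH and at 2.96, 7.53 and 13.4 in TAM. S100a8 was at 0 in EtOH and at 0.46, 5.01 and 0.40 in TAM, and neither gene reached the filter. The part of all these markers in the chemokine values was not tested.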

How the data were processed

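Poly(A) RNA of 6 MSF samples, 3 EtOH and 3 TAM, was sequenced. TopHat was used by the authors for alignment to mm9, htseq-count for counting on genes, and edgeR (TMM) for their comparison. The deposited signal is a single table of normalized counts for every gene in the 6 libraries. Its scaling is not stated and the values are not whole numbers, so no count model was run here, no counting intervals were computed, and the precision is that of 3 libraries against 3.

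Values were analysed as log2(value + 1) with limma 3.58.1 in R 4.3.3, with an intensity trend, over the 11877 genes that reached 1 c.p.m. (16.2 normalized counts) in at least 3 of the 6 libraries. P-values were Benjamini-Hochberg adjusted over all of these, with a threshold of 0.05. Fold changes are on the log2(value + 1) scale, which understates changes of low genes. The model was tested on simulated data whose spread within groups was capped below that of Cxcl1 and Ppbp. The simulation does not show how the fit performs for genes as variable as these.

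The labels number the samples of each group 1 to 3. Deviations from group means correlated at 0.241 to 0.422 between same-numbered libraries of the 2 groups and at −0.310 to 0.0374 between the other 6 pairs, so the numbers were taken to pair the samples. The pairing comes from the numbers and from these correlations alone. Deviations within a group sum to 0, so positive values for same-numbered libraries pull the others down, and the ranges are not independent. The block was thus chosen from the same values that it was used to test. Results are given without the block, and with it where it changes a call. No library was a copy of another, with at most 0.0086% of genes above 20 sharing a value between 2 libraries.

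The 7 members and all gene lists were chosen with earlier results of these data known. From each list the text names the genes called in either fit, and otherwise the 2 tested genes with the largest absolute log2 fold change. It also names all tested genes within 500 kb of the family and the 5 genes with the highest Pearson r with each tested member. Genes outside this rule (Csf3, Cxcl14, Cd68, Thy1, Pdgfrb, Tnfaip6, and the untested receptors, neighbours and cell type markers) were named after their values were seen. Positions, exons and lengths came from the mm9 annotation, and BLAST 2.17.0 was used to search the genome for other copies of each transcript (95% identity over 100 bases or more). Plots were made with Python 3.11.15 and matplotlib 3.10.9. Alternatives were other scalings, pseudocounts of 0.1 and 10, other filters, library weights, a fold change of at least 2, ratios of means with a floor of 1 c.p.m., the longest transcript as gene length, and leaving out each library. Leaving out whole pairs, combining the block with other settings, and leaving out EtOH replicate 2 for further genes were added after seeing the data. One marker on the lists is not reported here. The qRT-PCR, protein and tissue experiments were not analysed here.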

Additional observations from a re-analysis of the deposited data

How the results depend on the processing

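The direction of Cxcl5, Cxcl1 and Ppbp was the same under all alternatives, with log2 fold changes of 3.12 to 4.28, 2.83 to 4.96 and 2.51 to 5.06, and the limma adjusted p without the block ranged over 0.0250 to 0.234, 0.0515 to 0.560 and 0.0586 to 0.655. Without the block 0 of the 3 were called, against 3 with the replicate block, 1 with libraries scaled to the same sum (Cxcl5, limma adjusted p = 0.0491), 1 with library weights (Cxcl5, 0.0250), and 0 to 1 when 1 library was left out (Cxcl5 without TAM replicate 3). With the block, 3 were called under the other scalings, pseudocounts and weights and without the filter, and 1 where a value of at least 10 was required in every library, since only Cxcl5 was then tested. Leaving out pairs gave 2 or 3, the 2 without replicate 2, where Ppbp was not tested. Over all genes, 29 were called without the block and 192 with it, 17 without the filter, 18 with at least 10 in every library, 742 with library weights, and 0 to 15 when 1 library was left out. The cause of these shifts was not tested. Low values limit statements on Cxcl2, Cxcl3, Pf4 and Cxcl15, which stayed under 1 c.p.m. in all libraries.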
